A study of Mus musculus with 2 samples.

Results

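TR binding sites (TRBS) at gene starts were the peaks of the TRα1 ChIP-seq list whose summit, where most fragments pile up, lay on an autosome and at most 1000 bp from the nearest protein-coding transcription start site (TSS), on either side. They numbered 601 of the 5107 TRBS in all, and 4434 other autosomal TRBS served for comparison. The rule chose among called TRBS by position alone, without sequence content or any measured level. Every TRBS had first been called on its fragments over input, so occupancy entered both sets through that call. The 601 TRBS lay nearest to the starts of 590 genes. Because 63 of the TRBS had more than 1 protein-coding start within reach, 652 of the 20807 autosomal protein-coding starts (3.13%) had a TRBS within 1000 bp.

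The chromatin came from brown adipose tissue of male C57BL/6J mice aged 8 to 12 weeks, with the genotype TRa1 GS-tagged. The tagged receptor was expressed in brown adipocytes only, and the promoter that restricts it is not given in the sources used here. All animals received propylthiouracil, which blocks thyroid hormone synthesis, in their food for 2 weeks and then thyroid hormone for 24 h. The ChIP library (n = 1) and the input library (n = 1) shared genotype and treatment, and the number of animals behind them is not given in the sources used here. Animals without hormone were not analysed here. With no replicate, no test between conditions was possible, and the 95% intervals given with shares (Wilson) and with differences of shares (Newcombe) cover counting error over regions only. Neighbouring regions are not independent.

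TR is a nuclear receptor that binds DNA mostly as a heterodimer with RXR. Its best known element is DR4, a direct repeat of the half-site AGGTCA with a spacer of 4 bp. Without T3 the receptor recruits corepressors, and with T3 it recruits coactivators. Mammalian promoters fall broadly into CpG-rich ones, typical of widely expressed genes and often holding GC boxes bound by SP and KLF factors, and CpG-poor ones, more often belonging to tissue-restricted genes. In brown adipocytes T3 stimulates thermogenesis, together with the sympathetic system, through genes such as Ucp1.

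The sequences below are 12 elements at gene starts close to the DR4 consensus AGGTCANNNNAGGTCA, found on both strands of the 200 bp around the summit. They are the 1 without a mismatch and, of the 24 TRBS tied at 1 mismatch, the 11 with the most fragments. They are shown because they carry the known recognition sequence of the receptor within 1000 bp of a gene start. Each is read 5′ to 3′ on the strand of the element, and capitals mark the half-sites.
2310061I04Rik: ggatggcAGGTCAcccgAGGTCAagcctga
Faap100: gagagcgAGGTCAggcgAGGGCAcacgcgg
Tmem186: aggctggAGTTCAagccAGGTCAccagccc
Letm1: gttgcccAGGTCGccgcAGGTCActgctgc
Adtrp: cccggcaAGGTCAagccAGGTCTtaagaga
Tpcn1: cccggccAGGTCAcaagAGGACAcagcagg
Yif1b: gttggcgAGGTCActccAGGTCGgacggag
Brwd1: agagccgAGGTCGtttgAGGTCAggcctct
Orai1: ttgacttAGGCCAtccgAGGTCAcctctgg
Tcp11l2: gtccaggAGGCCAgctcAGGTCAcatctgg
Rcc2: tctagacAGGTCAcctgAGGACActcgctg
Orm3: cactctgAGGTCAcgaaGGGTCAtaaagaa

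The element nearest the start of 2310061I04Rik was the only one among the 601 TRBS that matched all 12 half-site bases, and the other elements shown have 1 mismatch. In GRCm38 the printed sequences lay as follows: 2310061I04Rik at chr17:35896733-35896762 on the plus strand, Faap100 at chr11:120378458-120378487 on the plus strand, Tmem186 at chr16:8638036-8638065 on the minus strand, Letm1 at chr5:33782300-33782329 on the minus strand, Adtrp at chr13:41847732-41847761 on the minus strand, Tpcn1 at chr5:120588218-120588247 on the plus strand. The others were Yif1b at chr7:29238504-29238533 on the plus strand, Brwd1 at chr16:96083206-96083235 on the minus strand, Orai1 at chr5:123014772-123014801 on the minus strand, Tcp11l2 at chr10:84577495-84577524 on the plus strand, Rcc2 at chr4:140701189-140701218 on the minus strand, Orm3 at chr4:63357140-63357169 on the minus strand. Their TRBS had between 24 (2310061I04Rik) and 67 (Faap100) ChIP fragments at the summit, a range that follows in part from this choice. Faap100 belongs to the Fanconi anaemia core complex, Letm1 encodes an ion exchanger of the inner mitochondrial membrane, Orai1 the pore of the store-operated calcium channel and Tpcn1 an endolysosomal cation channel. Adtrp encodes a hydrolase of lipid esters and Orm3 an acute-phase plasma glycoprotein. The summits of 2310061I04Rik, Yif1b and Rcc2 lay in a UTR, those of Adtrp, Brwd1 and Orai1 outside protein-coding transcripts, and the other 6 in introns. Elements were found on both sides of the start and on both strands. Among the 113 TRBS at gene starts with a DR4 of at most 2 mismatches, 60 lay downstream (53.1%, 44.0 to 62.04), and 56 of the elements were on the strand of the gene (49.6%, 40.5 to 58.6).

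Summits gathered around the TSS itself. In bins of 200 bp, the number of TRBS rose from 18 at 1000 to 800 bp upstream to 107 in the last 200 bp before the start, was highest at 113 in the first 200 bp after it, and fell to 33 at 800 to 1000 bp downstream. The median distance was 284 bp, with quartiles of 141 and 508 bp. Downstream summits made up 54.1% (325 of 601, 50.1 to 58.0). The share was 50.3% (45.7 to 54.95) within 500 bp and 48.5% (44.9 to 52.1) with the starts of every protein-coding transcript, so neither side was preferred under all settings. The summit lay outside protein-coding transcripts in 270 TRBS, in an intron in 178, in a UTR in 132 and in a coding exon in 21. The TRBS just inside the limit were those of Lrrc75b at 991 bp, Gm10721 at 992 bp and Slc9a2 at 995 bp. Those just outside it, all at 1001 bp, were nearest to Pou3f2, Cebpb and Acsf2.

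**Figure D1:**
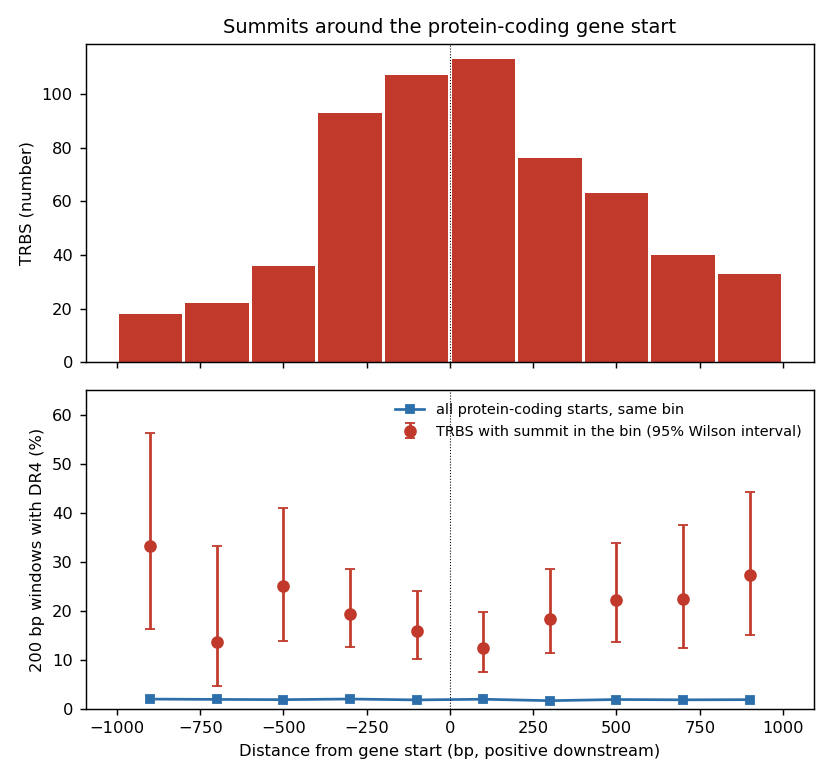
Number of TRBS at gene starts by distance of the summit from the TSS in 200 bp bins (upper panel, bars) and percent of their 200 bp windows with a DR4 of at most 2 mismatches (lower panel, circles with 95% Wilson intervals), with the same percent over windows at all protein-coding starts (squares). Counts peak at 113 in the first 200 bp downstream, where the DR4 share is lowest at 12.4%, while the squares stay between 1.65% and 2.00%.

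The number of ChIP fragments at the summit had the same median at gene starts as elsewhere. Whole numbers of ChIP fragments were recovered from the deposited fold and p-value for 592 of the 601 TRBS, and their median was 17 fragments at the summit (quartiles 11 and 26), against 17 (11 and 27) at the other TRBS. Both sets hold only called TRBS, with at least 5 fragments, so these medians do not cover sites that were not called. The input background, on the scale of the ChIP library, was higher at gene starts, with a median of 0.913 fragments (quartiles 0.609 and 1.37) against 0.622 (0.496 and 0.913). The fold over input was lower, with a median of 8.36 against 10.03. A score of at least 60, the threshold of the study's methods, was reached by 81.0% (77.7 to 84.0) of the TRBS at gene starts and by 82.8% (81.6 to 83.9) of the others.

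A block of 11 TRBS on chromosome 9 and a single TRBS on chromosome 2 stood apart by their input. The block spanned chr9:3000305-3037538, at predicted genes such as Gm10715, Gm10721 and Gm11168, and the single one was at Gm10800. Their folds ranged from 1.93 to 3.03, and the background was 192 to 511 fragments in the 3 for which it could be recovered. A median of 96.3% of the bases of the chromosome 9 peaks was marked as repeat in the reference, and none of the 12 held a DR4. The 589 TRBS without them had a DR4 share of 19.2% and a CpG-rich share of 60.4%, against 18.8% and 59.2% with them.

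TRBS at gene starts were rich in CpG and the other TRBS were not. A 500 bp window was called CpG-rich at a GC content of at least 50% and an observed/expected CpG ratio of at least 0.6. By this rule 356 of the 601 TRBS at gene starts were CpG-rich (59.2%, 55.3 to 63.1), against 124 of the 4434 other TRBS (2.80%, 2.35 to 3.32), a difference of 56.4 percentage points (52.4 to 60.3). Gene starts are CpG-rich in general, and 48.8% of all autosomal protein-coding starts passed the same rule. The TRBS exceeded this by 10.4 points (6.396 to 14.3). Seen from the starts, a TRBS lay within 1000 bp of 493 of 10155 CpG-rich starts (4.85%, 4.45 to 5.29) and of 159 of 10652 others (1.49%, 1.28 to 1.74). The median window of 200 bp held 12 CpG at gene starts and 2 at the other TRBS.

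The 2 windows below, 200 bp at the summits of the TRBS with the most fragments in each class, among those with a fold of at least 5 whose window met no UTR, show the 2 compositions on the plus strand of GRCm38. Capitals mark CpG. The window of Adam17 (chr12:21373730-21373929, CpG-rich) held 12 CpG, and that of Plin3 (chr17:56292915-56293114) held none.
Adam17: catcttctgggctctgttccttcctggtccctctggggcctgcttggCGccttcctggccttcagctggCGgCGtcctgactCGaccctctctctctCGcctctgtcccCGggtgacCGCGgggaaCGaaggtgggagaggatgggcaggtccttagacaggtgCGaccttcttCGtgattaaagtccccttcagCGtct
Plin3: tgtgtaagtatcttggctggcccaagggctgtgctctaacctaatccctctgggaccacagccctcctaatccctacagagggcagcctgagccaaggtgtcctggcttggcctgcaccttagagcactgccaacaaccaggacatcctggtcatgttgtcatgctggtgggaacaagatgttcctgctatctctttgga

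**Figure D2:**
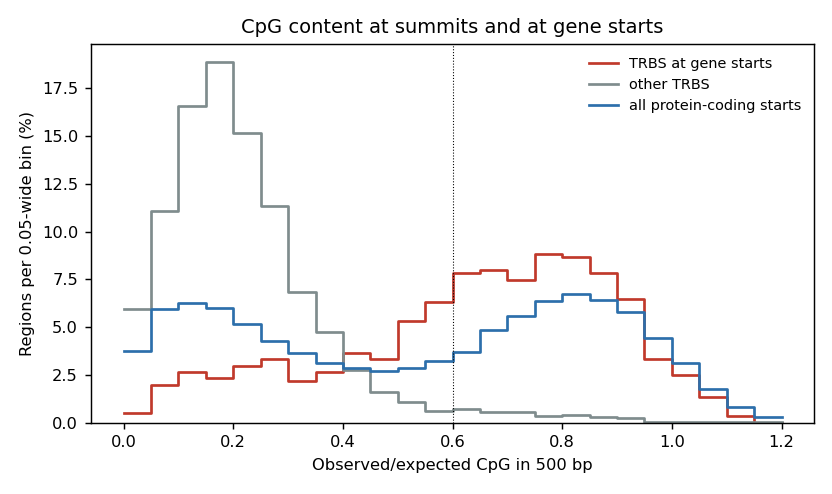
Distribution of the observed/expected CpG ratio in 500 bp around the summits of TRBS at gene starts and of other autosomal TRBS, and around all autosomal protein-coding starts, as percent of regions per bin of 0.05, with the threshold of 0.6 as a dotted line. The other TRBS gather around their median of 0.193, and the TRBS at gene starts around 0.685.

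The DR4 element was less frequent at gene starts than at other TRBS, and far more frequent than at gene starts in general. A DR4 of at most 2 mismatches was present in 113 of 601 windows of 200 bp (18.8%, 15.9 to 22.1), against 1257 of 4434 at the other TRBS (28.3%), a difference of -9.55 points (-12.8 to -5.98). The share in windows centred on all autosomal protein-coding starts was 1.78%, so the TRBS exceeded it 10.6-fold. Weighting all starts to the positions of the TRBS in the same 200 bp bins gave 1.87% and a ratio of 10.1. The single half-site, AGGTCA or GGGTCA, followed the same order, with 46.8% (42.8 to 50.8) at gene starts, 60.7% (59.2 to 62.1) at the other TRBS and 17.1% over all starts. Neither a half-site nor a DR4 was found in 289 of the windows at gene starts (48.1%, 44.1 to 52.1), compared with 33.6% (32.3 to 35.0) of those at other TRBS. Where a DR4 was present, its centre lay a median of 21.5 bp from the summit at gene starts and 18.5 bp elsewhere.

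The lower DR4 share moved with CpG content. Among CpG-rich windows, 13.5% (10.3 to 17.4) of the TRBS at gene starts and 16.9% (11.4 to 24.5) of the other TRBS held a DR4, a difference of -3.45 points whose interval (-11.7 to 3.38) included 0. Among the remaining windows the shares were 26.5% (21.4 to 32.4) and 28.7% (27.4 to 30.0), a difference of -2.15 points (-7.46 to 3.86). Both differences are smaller than the one over all windows, and neither interval excludes a difference of several points. The mismatch limit mattered here. With at most 1 mismatch the difference among CpG-rich windows was 2.003 points (-1.84 to 4.38), and with at most 3 mismatches that among the rest was -6.69 points (-13.1 to -0.475). Within the TRBS at gene starts, the DR4 share of the CpG-rich ones minus that of the others was -13.05 points (-19.7 to -6.58). In both classes the share stayed far above that of starts of the same class, which was 0.896% for CpG-rich starts and 2.62% for the others.

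The DR4 share also varied with distance and occupancy. It was 14.1% (10.1 to 19.3) for the 220 summits at most 200 bp from the start and 29.4% (18.7 to 43) for the 51 summits more than 800 bp away, where only 19.6% were CpG-rich instead of 75.5%. Beyond 400 bp the share was 7.85 points higher than within it (1.251 to 14.9). This difference was 11.4 points (2.97 to 21.5) among CpG-rich TRBS and -2.14 points (-13.0 to 8.93) among the others. From the weakest (5 to 11 fragments) to the strongest (over 27 fragments) TRBS, the share went from 19.1% to 37.8% away from gene starts, a difference of 18.6 points (14.9 to 22.3). At gene starts it went from 16.9% to 22.6%, a difference of 5.67 points whose interval (-3.51 to 15) included 0. CpG-rich TRBS at gene starts went from 7.29% to 19.7%, by 12.5 points (2.26 to 23.4), and the others from 32.8% to 26.3%, by -6.44 points (-22.5 to 10.1). Whether these gradients differ from each other was not tested.

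**Figure D3:**
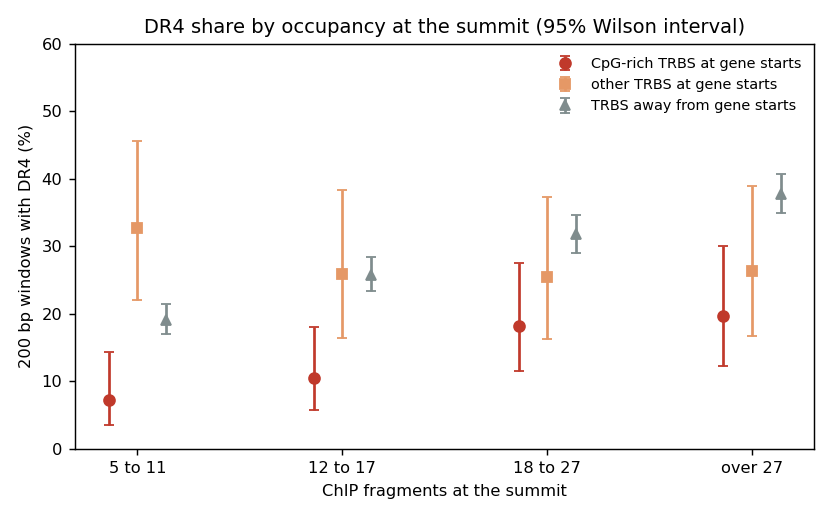
Percent of 200 bp windows with a DR4 of at most 2 mismatches, by ChIP fragments at the summit, for CpG-rich TRBS at gene starts (circles), other TRBS at gene starts (squares) and TRBS away from gene starts (triangles), with 95% Wilson intervals. The triangles climb from 19.1% to 37.8% and the circles from 7.29% to 19.7%, while the squares go from 32.8% to 26.3%. The intervals overlap across the 4 bins for the circles and for the squares.

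GC boxes, the GGGCGG element read by SP and KLF factors, were more frequent at gene starts than at other TRBS. They were present at 271 of 601 TRBS at gene starts (45.1%, 41.2 to 49.1) and at 287 of 4434 others (6.47%, 5.79 to 7.24), a difference of 38.6 points (34.6 to 42.7). Over all protein-coding starts the share was 40.7%. Since the box is most frequent close to the start, positions matter here. At the positions of the TRBS, all starts had 22.2%, which the TRBS exceeded 2.03-fold, and among CpG-rich starts the value was 41.7% against 62.9% at CpG-rich TRBS, a ratio of 1.51. The class of a start was called in the 500 bp around the start itself, and that of a TRBS around its summit. Windows away from a CpG-rich start need not be CpG-rich, so this ratio compares unlike windows. Windows centred on CpG-rich starts had 68.0%, a difference of -5.11 points (-10.3 to -0.174) for the TRBS. The direction thus differed between these comparisons, which differ in position and in how the windows were classed. The difference from other TRBS was 7.28 points (-2.60 to 17.3) among CpG-rich windows and 14.1 points (9.63 to 19.6) among the rest. The longer box GGGGCGGGG, which contains the shorter one, was present in 13.1% (10.7 to 16.1) at gene starts, 1.38% (1.07 to 1.76) at other TRBS and 12.4% (11.9 to 12.9) at all starts.

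Other promoter elements divided into groups, searched on both strands without mismatches unless stated. The ETS element CCGGAAG was found in 6.49% (4.78 to 8.75) of the TRBS at gene starts, 1.35% (1.05 to 1.74) of the others and 9.78% (9.38 to 10.2) of all starts. The YY1 element ATGGCGG was found in 2.995% (1.90 to 4.68), 0.519% (0.346 to 0.777) and 5.23% (4.94 to 5.54), in the same order. These shares lay between those of other TRBS and all starts. They depended on position, since in the 117 TRBS at most 100 bp from the start the ETS element reached 16.2% (10.7 to 24.0) and the YY1 element 8.55% (4.71 to 15.02). The NF-Y element CCAAT was less frequent at the TRBS at gene starts (18.8%, 15.9 to 22.1) than at all starts (28.0%, 27.4 to 28.6), while the difference from other TRBS (21.9%) was -3.12 points (-6.29 to 0.407). The difference from starts was -13.6 points (-17.0 to -9.43) between CpG-rich TRBS and CpG-rich starts. Its interval included 0 in the other class, at -2.84 points (-7.92 to 2.99), and for the 117 closest TRBS, at -7.44 points (-13.8 to 0.781). The cAMP response element TGACGTCA, target of CREB, was found at 1 TRBS at gene starts (0.166%, 0.0294 to 0.936) against 2.01% (1.83 to 2.21) of all starts, and at 0 of the 117 closest ones, where the interval reaches 3.18%. Other TRBS held it in 0.226%, and the difference from them was -0.0591 points (-0.293 to 0.718). The E-box CACGTG, used by the clock factors CLOCK and BMAL1 among others, was found in 6.99% (5.21 to 9.31) at gene starts and in 4.15% (3.60 to 4.78) at other TRBS, but the share over all starts was 5.73% (5.42 to 6.05) and the difference from it, 1.26 points (-0.547 to 3.60), had an interval that included 0. Against other TRBS of the same CpG class the E-box difference was -0.163 points (-6.96 to 4.96) among CpG-rich windows and 0.476 points (-1.59 to 3.89) among the rest. In the 117 TRBS closest to the start the E-box share was 14.5% (9.27 to 22.04), 8.80 points (3.54 to 16.3) above windows centred on all starts. This contrast was not matched for CpG class, and CpG-rich starts alone had 8.37% (7.8 to 8.9).

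Some elements were rarer at gene starts than at other TRBS over all windows. The AP-1 element TGANTCA was found in 2.83% (1.77 to 4.48) against 7.80% (7.05 to 8.63). Its difference was -1.26 points (-6.14 to 1.57) among CpG-rich windows and -3.85 points (-5.89 to -0.497) among the rest. The DR1 element, bound by PPAR with RXR and searched as AGGTCANAGGTCA with at most 2 mismatches, was found in 4.49% (3.11 to 6.46) against 9.22% (8.41 to 10.1). Within the CpG classes both intervals included 0, with a difference of 1.72 points (-2.09 to 4.03) among CpG-rich windows and -2.12 points (-4.92 to 1.94) among the rest. EBF sites, searched as TCCCNNGGGA, were found in 1.16% (0.565 to 2.38) against 2.73% (2.29 to 3.25), and the difference was -3.72 points (-9.08 to -0.590) among CpG-rich windows and -1.44 points (-2.41 to 0.911) among the rest. The extended ERR half-site TCAAGGTCA, which contains the half-site, was found in 3 TRBS at gene starts (0.499%, 0.170 to 1.46) and in 1.29% (0.994 to 1.66) of the others, a difference of -0.786 points whose interval (-1.29 to 0.215) included 0. The remaining motifs, for NRF1, C/EBP, CTCF and NF1, the last of them searched with at most 1 mismatch, were present in at most 0.832% of the TRBS at gene starts. No search result shows which factor was bound.

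**Figure D4:**
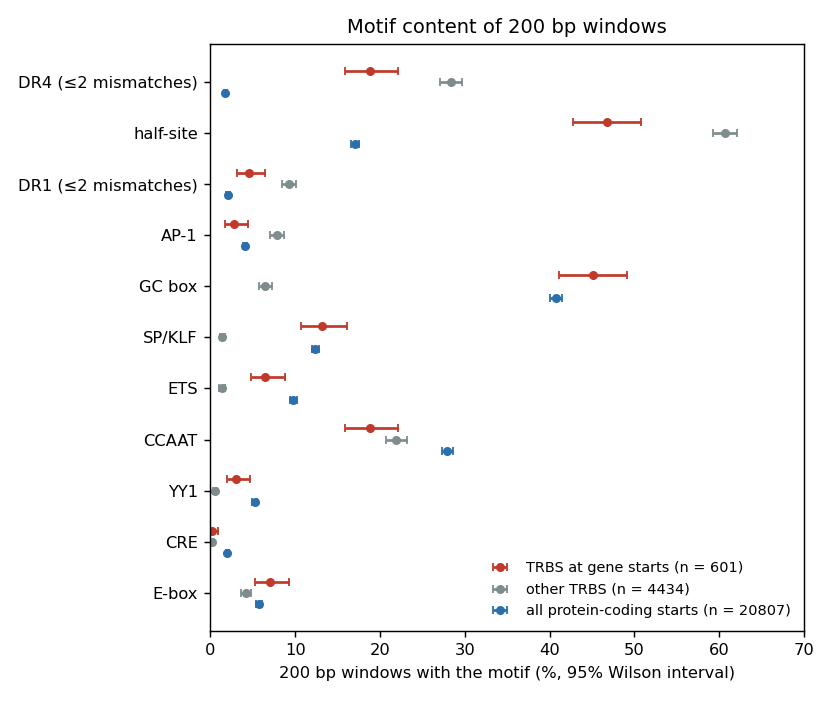
Percent of 200 bp windows with each motif at TRBS at gene starts, other autosomal TRBS and all autosomal protein-coding starts, with 95% Wilson intervals. TRBS at gene starts lie between the other sets for DR4 (18.8%) and the half-site (46.8%) and beside all starts for the GC box (45.1%).

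Some TRBS lay at starts shared by several genes. A single protein-coding start was within 1000 bp for 538 TRBS, 2 starts for 62 and 3 starts for 1, the latter with Nup62 and Atf5 among its starts. In 32 of these 63 the outermost starts pointed away from each other, in 24 they faced each other with overlapping transcripts, and in 7 they had the same strand. The nearest start had a divergent protein-coding partner at most 1000 bp away in 32 of 601 TRBS (5.32%, 3.797 to 7.42). Such a partner was present at 6.97% of all starts, a difference of -1.64 points whose interval (-3.21 to 0.478) included 0. The 32 TRBS with such a partner were not the same set as the 32 whose outermost starts pointed apart. The TRBS at Tns1 and Rufy4, starts 1092 bp apart, belonged only to the latter, and that at Dusp18 only to the former. Seen from the starts, 61 of 1450 with a divergent partner had a TRBS (4.21%, 3.29 to 5.37), compared with 591 of 19357 without one (3.05%, 2.82 to 3.31). In this count a TRBS within 1000 bp of both paired starts counts for both, wherever its summit lies. With partners of any gene type, which adds divergent noncoding RNAs, the share was 14.3% (11.7 to 17.3) at the TRBS and 11.1% (10.7 to 11.5) over all starts. The difference was then 3.21 points (0.598 to 6.26), opposite in sign to that for protein-coding partners.

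The divergent pair with the most fragments was Polr3c and Rnf115, a subunit of RNA polymerase III and a ubiquitin ligase whose starts are 36 bp apart, with 49 fragments. Smc6 and Gen1, both of them acting in DNA repair, followed with 40. Coa5, an assembly factor of cytochrome oxidase, and Unc50 had 37, as did Tpcn1 and Iqcd. The pair of Rxrb, the RXRβ partner of TR, and the zinc transporter Slc39a7 had a pair of TRBS, with 31 and 27 fragments. Dlst, a subunit of the 2-oxoglutarate dehydrogenase of the citric acid cycle, and Prox2 had 29, while Btf3l4 with Txndc12 and Zfp654 with Cggbp1 had 27 each. The summit lay between the paired starts in only 6 of the 32. Of the 32 TRBS, 23 were CpG-rich, 15 had a half-site and 5 a DR4 (15.6%), beside the 59.2%, 46.8% and 18.8% of all TRBS at gene starts. The DR4 elements of this set with at most 1 mismatch came down to that of Tpcn1, printed above.

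A total of 11 starts had 2 TRBS each, and none had more. They were Coq10a, Ino80, Mapk6, Nrp1, Nudt18, Ppara, Rev1, Rxrb and Zbtb20, with Gm10715 and Gm11168 of the repeat block on chromosome 9. The paired TRBS of Coq10a, which encodes a coenzyme Q-binding protein, had 87 fragments 634 bp downstream and 10 fragments 889 bp upstream. At Nrp1, a co-receptor of semaphorins and VEGF, 77 fragments lay 977 bp upstream and 8 fragments 87 bp downstream. At Nudt18 there were 59 fragments 654 bp upstream and 16 fragments 57 bp downstream. At Nrp1 and Nudt18 the larger pileup was the one farther from the start, and at Coq10a it was the nearer one. Another summit within 10 kb was present for 24.5% (21.2 to 28.1) of the TRBS at gene starts and for 30.7% (29.3 to 32.0) of the others.

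The TRBS with the most fragments, among those with a fold of at least 5, belonged to genes of varied function. Adam17, the protease that sheds TNF and other ligands, had 143 fragments 198 bp upstream of its start (95% Poisson interval 120.5 to 168.5, fold 71.7). Dyrk1b, a protein kinase, had 101 (82.3 to 123), with a DR4 of 2 mismatches. Plin3, a lipid droplet coat protein, had 95 (76.9 to 116) in a window without CpG, also with a DR4 of 2 mismatches. Atp5g3, a membrane subunit of the mitochondrial ATP synthase, had 88 (70.6 to 108). Coq10a had 87, and Lep, the satiety hormone leptin, had 86 (68.8 to 106) 269 bp upstream. The interval of Adam17 lies above that of Plin3 and of the genes after it, whereas the intervals from Dyrk1b to Lep overlap.

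Next came Elmod2 and the ubiquitin ligase gene Rnf138 with 82 fragments each, Jarid2, a cofactor of Polycomb complex 2, with 80, and Nrp1 with 77. Elmod2 had an input background of 14.3 fragments and a fold of only 5.42. Esrrg, an orphan nuclear receptor of mitochondrial metabolism, had 76 fragments and a fold of 53.9. Dot1l, a histone methyltransferase, had 75, Dglucy 73, and Nr1d2, the clock repressor REV-ERBβ, 73. Gbe1, the glycogen branching enzyme, had 72, and Myd88, an adaptor of Toll-like receptors, had 68. Faap100, Grk3, Loxl1 and Ppp1r9b had 67 each. Uck1, a uridine-cytidine kinase, also had 67, and was left out of the 20 by alphabetical order alone. Of these 20 TRBS, 10 were CpG-rich, 10 had a GC box, 11 a half-site and 5 a DR4, and 10 lay downstream of the start. Over all 601 TRBS at gene starts the corresponding shares were 59.2%, 45.1%, 46.8%, 18.8% and 54.1%, and no difference was tested. The 5 with a DR4 were Dyrk1b, Plin3, Rnf138, Faap100 and Loxl1.

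Genes of brown fat and of fuel metabolism are described next, beside the 3.13% of all starts that had a TRBS. The lists were chosen with results of these data known, so their shares are descriptions and no difference was tested. At a score of at least 60 the share over all starts was 2.51% (2.31 to 2.74), and 9 brown fat genes, 10 lipid and fuel genes and 7 respiratory chain and ATP synthase genes still had a TRBS. In the list of brown fat genes, 10 of 30 had a TRBS within 1000 bp (33.3%, 19.2 to 51.2). Ucp1, the uncoupling protein of thermogenesis, had 27 fragments 117 bp upstream, over an input background of 2.74. Plin1, the main perilipin of adipocytes, had 21 fragments 8 bp from its start, Pparg, the adipogenic nuclear receptor, 16, and Cidea, a lipid droplet protein, 7. The others were Esrrg with 76, Irf4 and the potassium channel gene Kcnk3 with 22 each, Letmd1 with 17, Cox8b with 12, and Ppara with 7 and 15. The TRBS of Cidea had a score of 37 and the weaker one of Ppara 39, both below 60. Of 6 brown adipocyte markers 4 (Ucp1, Cidea, Pparg and Plin1) had a TRBS at the start, Cidea only with a score below 60. In each of the endothelial, macrophage, skeletal muscle and neuronal sets, 0 of 5 did so. With 3.13% of all starts having a TRBS, a count of 0 of 5 is uninformative, and these files hold no measure of expression, so the labelled tissue could not be checked.

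In the list of lipid and fuel genes, 12 of 56 had a TRBS (21.4%, 12.7 to 33.8). Gpd1 and Gpd2, the cytosolic and mitochondrial glycerol-3-phosphate dehydrogenases of the same shuttle, had 51 fragments 900 bp upstream and 38 fragments 808 bp downstream. Slc2a4, the insulin-responsive glucose transporter GLUT4, had 45, Me1, malic enzyme, had 43, and Acacb, the acetyl-CoA carboxylase of the mitochondrial surface, had 24. Among the others, Agpat2, Fasn, Mlxipl, Pck1, Pdk4 and Pnpla2 had 11 to 13 fragments. None of the 12 had a DR4 of at most 2 mismatches, and 6 had a half-site, beside 18.8% and 46.8% of all TRBS at gene starts. With 12 TRBS these counts do not set the list apart.

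Clock genes and nuclear receptors were described in the same way. Of 20 clock genes 6 had a TRBS (30.0%, 14.5 to 51.9), with 73 fragments at Nr1d2, 47 at Bhlhe40, 47 at Per3, 17 at Nr1d1, 12 at Bhlhe41 and 11 at Ciart. Bhlhe41 and Ciart had scores below 60, and without them the share was 20.0% (8.07 to 41.6). Of 41 nuclear receptor genes 8 had one (19.5%, 10.2 to 34.0), namely Esrrg, Nr1d1, Nr1d2, Nr2c1, Nr4a1, Ppara, Pparg and Rxrb. All but Nr2c1 also count in another list, Esrrg, Ppara and Pparg as brown fat genes and Nr1d1 and Nr1d2 as clock genes. Nr4a1 counts among immediate early genes and Rxrb in the thyroid hormone signalling list, so these shares are not separate observations. The thyroid hormone signalling list had 2 of 24 (8.33%, 2.32 to 25.9), Rxrb and the coactivator gene Ncoa3 with 19 fragments. Immediate early and growth arrest genes had 6 of 34 (17.6%, 8.35 to 33.5), with 26 fragments at Zfp36l2, 24 at Gadd45a, 18 at Egr1 and 11 each at Dusp1, Nr4a1 and Tob1. The TRBS counted for Dusp1 lay nearer to the start of Ergic1. Of 8 genes that the study names as responding to T3 in several cell types or as receptors, a list selected on other data of the same study, 2 had a TRBS, Stat5a with 61 fragments and Hr with 37. The study assigns TRBS to genes over a far wider distance than 1000 bp. A gene without one here may have one farther from its start.

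Large sets of housekeeping genes are given beside the 3.13% of all starts, and no difference between the sets was tested. In the respiratory chain and ATP synthase, 9 of 91 genes had a TRBS (9.89%, 5.29 to 17.7), with 88 fragments at Atp5g3, 31 at Atp5j, 26 at Cox5a, 23 at Ndufs4, 15 at Cycs, 14 at Atp5a1, 12 at Cox8b and 9 each at Ndufa7 and Ndufv3. Mitochondrial ribosomal proteins had 1 of 78 (1.28%, 0.227 to 6.91), Mrps30, and the proteasome 0 of 38, where the interval reaches 9.18%. Cytosolic ribosomal proteins had 4 of 81 (4.94%, 1.94 to 12.0), at Rpl13a, Rpl15, Rpl23a and Rps28. The starts of these 4 sets are CpG-rich in 76.9% to 86.8% of genes. Of the olfactory receptors 1 of 1087 had a TRBS, Olfr1420, with 26 fragments. Autophagy genes had 2 of 28, Ulk2 and Optn, Klf and Sp factors had 1 of 25, Klf3, and aminoacyl-tRNA synthetases had 1 of 34, Wars. Several of these TRBS count for 2 lists or 2 genes, as that at the paired starts of Ndufa7 and Rps28 does. A list gene counted with any TRBS within 1000 bp of its start, also one nearer to another gene. Those counted for Atp5j, Atp5a1 and Ndufv3 lay nearest to the starts of Gabpa, Haus1 and Wdr4. Those counted for Rps28, Mrps30 and Wars lay nearest to the starts of Ndufa7, B430218F22Rik and Wdr25.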

How the data were processed

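ChIP-seq of GS-tagged TRα1 gave 1 ChIP and 1 input library, and the authors deposited the peaks of the former over the latter. Per the submitters' processing notes, reads were aligned to mm10 (GRCm38) with Bowtie2 2.3.2.2 and peaks were called with MACS2 2.1.1.20160309.6. The deposited score is 10 times the −log10 q-value. The deposited fold is a ratio at the summit, (ChIP pileup + 1) over (input background + 1). A Poisson test by the authors gave the −log10 p-value and, after adjustment, the −log10 q-value. The list was not filtered at the score of 60 named in the study's methods. These values served only to describe and filter peaks.

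Read totals are not given in the sources used here. The depth was therefore read from the fold and the −log10 p, which together fix a whole number of ChIP fragments (tolerance 0.0005 in −log10 p), found for 5018 of 5035 autosomal TRBS. Without molecular identifiers, fragments may be copies of a molecule, so intervals cover counting error only. The smallest counts, 5 fragments, are the least precise.

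Starts were the 5′ ends of 21951 protein-coding gene records of the basic GENCODE annotation of GRCm38, and sequences came from the RefSeq GRCm38 assembly. A UTR took priority over a coding exon, and that over an intron. Motifs were searched in 200 bp and CpG content in 500 bp centred on the summit or start. A divergent partner is a start on the opposite strand, at most 1000 bp away and transcribed away. Named genes were the 20 TRBS with the most fragments among folds of at least 5, the 12 best DR4 elements, the 10 strongest divergent TRBS, starts with 2 TRBS, list genes with a TRBS and the 3 TRBS nearest each side of the limit. Some genes that this rule names are not reported here. Members and lists were chosen with earlier results of these data known. Counting functions were tested on simulated data. Alternatives covered the score, the distance limit, the set of starts, windows, thresholds and base composition. Python 3.11.15 with scipy 1.17.1 and statsmodels 0.14.6 was used.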

Additional observations from a re-analysis of the deposited data

Results flagged for a closer look

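Chromosome X was outside the comparisons because the rule was limited to autosomes. A signal was also present there, with 10 of its 57 TRBS within 1000 bp of a start among 948 protein-coding genes. This was 17.5% of the TRBS on X (9.82 to 29.4), beside 11.9% (11.1 to 12.9) on autosomes. A TRBS lay within 1000 bp of 11 of the X starts (1.16%, 0.649 to 2.07), beside 3.13% (2.91 to 3.38) of autosomal ones. The animals were male, so X and autosomes differ in copy number and these shares of starts are not directly comparable. The cause of the difference was not tested. Among the TRBS on X near a start were those at Tfe3, Ndufa1, Apln, Pin4, Uprt, Pgk1, Sat1, Ap1s2 and Hccs. Pgk1, which encodes a glycolytic enzyme, had the most fragments with 52. None of the 15 TRBS on chromosome Y lay within 1000 bp of a start. The genes on X were named after their values were seen.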

How the results depend on the processing

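Of 76 values under alternative settings, 56 stayed within the 95% interval of the value reported (for the number of TRBS, within 1.5 times it), and among these values the DR4, half-site and GC box differences kept their sign. A score of at least 60 or 100 raised the median fragments from 17 to 20 and 24, and the latter left 353 TRBS at gene starts. A limit of 500 bp gave a CpG-rich share of 66.4% and a GC box difference of 43.1 points. Starts of every protein-coding transcript gave a downstream share of 48.5%, from 54.1%, and a CpG-rich share of 54.6%. Partners of any gene type gave a divergent share of 14.3%. The CpG-rich share was 50.1% with the stricter thresholds of 55% GC and a ratio of 0.65, and 54.7% in 200 bp. The DR4 difference was -2.34 points with at most 1 mismatch and -13.6 with at most 3. Within CpG-rich TRBS and within the rest, it was -3.45 and -2.15 points, that of the half-site -4.11 and -7.21, and that of the GC box 7.28 and 14.1. For the half-site the interval among the rest (-13.6 to -0.906) excluded 0, and that among CpG-rich TRBS (-14.2 to 5.86) included it. The GC box difference was 52.9 points over whole peaks. Gene lists at a score of at least 60 went to 0% for mitochondrial ribosomal proteins, and stayed within their intervals otherwise. The gene lists at this score, the values within CpG classes for the half-site, and all values without the TRBS of high input background, were added after seeing the data. The cause was not tested for any of these shifts, apart from those that the setting itself makes (fewer peaks, looser or wider searches). No paired analysis was possible because there is 1 library of each kind, and no replicate could be left out. Depth limits the list to sites with at least 5 fragments, and a start without a TRBS is one where none was called at this depth.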
